A study of Mus musculus with 4 samples.

Results

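Ribosome profiling was carried out in cultured mouse female germline stem cells (FGSCs), a germ stem cell line labelled as derived from the ovary. The lncRNA Gm26917 was targeted by a short hairpin RNA in 2 libraries (shGm26917), and 2 libraries came from cells with a control hairpin (shNC). Cells of both groups were treated with cycloheximide before lysis, footprints were made with RNase I, and ages, strains and separate cultures are not stated in the labels. The knockdown itself could not be checked here, since Gm26917 has 0 ORFs in the table, and its listed translation efficiency, which is not an RNA level, was 113.5 and 8.62 in shGm26917 replicates 1 and 2, against 17.0 and 23.8 in shNC replicates 1 and 2. The ORFs described here are the 296 of 4669 open reading frames (ORFs) with a value above 0 in each of the 4 libraries. These ORFs were selected on the values themselves, 1 in each library, so their presence in every library is a description and not a finding. Below, the 4 values of an ORF are given for shGm26917 replicates 1 and 2, then for shNC replicates 1 and 2.

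An ORF is the stretch of an mRNA from a start codon to a stop codon that ribosomes read. An elongating ribosome shields a short piece of mRNA from nuclease, and the number of such footprints on an ORF rises with the amount of the mRNA and with the number of ribosomes on each copy. A footprint value alone cannot tell these apart, whereas translation efficiency (TE) divides the footprints of a gene by its RNA. Cultured cells commonly devote many ribosomes to chaperones, translation factors, metabolic enzymes and the cytoskeleton. Histone mRNAs, most of which lack a poly(A) tail, are translated mostly during DNA synthesis.

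Chaperones of the endoplasmic reticulum (ER) held the largest value among the 296 ORFs and several of the next largest. Many ER chaperone genes share a promoter motif, the ER stress response element, which is bound when unfolded proteins accumulate in the ER. RefSeq promoter sequences (GRCm38.p6, 250 bases before to 50 bases after the start) were matched for 233 of the 296 genes, 17 of them through an older symbol. The motif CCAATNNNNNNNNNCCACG, searched on both strands, was present in 4 of these 233 genes (1.72%), against 7 of 3457 matched genes of the ORF table (0.202%) and 37 of 27025 genes with a promoter sequence (0.137%). The genes of the ORF table were matched without older symbols, and they include genes of the 296. The 4 genes were Hspa5, Hsp90b1, Calr and Pdia6, each an ER chaperone or folding enzyme, and Hsp90b1 carried the motif once on each strand. The windows below show the motif with 20 bases on either side, and the capitals mark its fixed letters. Hspa5 is shown at chr2:34772005-34772063 (plus strand), Hsp90b1 at chr10:86705618-86705676 (minus strand) and chr10:86705513-86705571 (plus strand), Calr at chr8:84847055-84847113 (plus strand) and Pdia6 at chr12:17266471-17266529 (plus strand). These letters are a match to the motif and no measure of binding.
Hspa5: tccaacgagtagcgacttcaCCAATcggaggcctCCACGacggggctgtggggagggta
Hsp90b1, strand of the gene: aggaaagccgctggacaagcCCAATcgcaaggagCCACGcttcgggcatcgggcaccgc
Hsp90b1, opposite strand: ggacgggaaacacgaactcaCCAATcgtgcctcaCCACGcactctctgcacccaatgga
Calr, opposite strand: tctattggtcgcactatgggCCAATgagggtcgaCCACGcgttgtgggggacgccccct
Pdia6: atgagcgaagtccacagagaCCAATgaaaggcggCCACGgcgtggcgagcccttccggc

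The values of these 4 genes overlapped between the groups. Hspa5, the main Hsp70 chaperone of the ER, had values of 22609 and 35827 in shGm26917, against 25880 and 27579 in shNC. Each value is the number of footprint reads on the ORF divided by a size factor of the library, and it is not corrected for ORF length. Comparison between libraries rests on these size factors, and how they were formed is not stated. Hsp90b1, the ER form of Hsp90, had 8606 and 16056 in shGm26917, against 14498 and 12467 in shNC. Calr, a calcium-binding chaperone of glycoproteins, had 3324 and 4807 in shGm26917, against 4498 and 3540 in shNC. Pdia6, a disulfide isomerase, had 1065 and 2998 in shGm26917, against 1891 and 1746 in shNC. In each of the 4, shGm26917 replicate 2 was the highest library and shGm26917 replicate 1 the lowest. The same order of the 2 shGm26917 libraries was seen in other folding enzymes. Pdia4, another disulfide isomerase, had 5961 and 11881 in shGm26917, against 8879 and 8566 in shNC, and Pdia3, which acts with Calr, had 6424 and 8581 in shGm26917, against 7214 and 7466 in shNC. P4hb, the prototype disulfide isomerase, differed from this order, with 4938 and 2565 in shGm26917, against 2503 and 1873 in shNC. Together, 8 ER folding genes (these 7 and the co-chaperone Dnajb11) took 16.3% and 21.3% of the summed value of the 296 ORFs in shGm26917, against 18.1% and 17.5% in shNC.

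The 296 ORFs belonged to 296 different genes. They comprised 282 annotated coding sequences and 14 ORFs outside annotated coding sequences, 12 of them in pseudogenes, and no upstream ORF. The table holds 71 upstream ORFs among its other 4373 ORFs. Their median length was 447.5 codons (25 to 5656), against 425 codons for the other ORFs, and 12.5% had a single exon, against 9.03%. High values set these ORFs apart more than length did. Of the 2575 ORFs above 0 in the 3 libraries other than shGm26917 replicate 1, ranked by the mean value in those libraries and cut into 10 bins of equal size, the 296 made up 37.6% of the top bin (1004 and above) and 20.6% of the next, but between 4.28% and 9.69% of each lower bin. Because the choice of ORFs used these values, this is a description of the choice.

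One library decided which ORFs were included. In shGm26917, 372 and 4250 ORFs were above 0, against 4211 and 3421 in shNC, and 2279 ORFs were at 0 in shGm26917 replicate 1 alone. The reads on all ORFs came to 157914 and 1753036 in shGm26917, against 1618481 and 1049143 in shNC. The 296 ORFs held 93.1% and 29.6% of those reads in shGm26917, against 28.5% and 29.8% in shNC. No searched marker of the labelled cell type is among the 296. Of 23 symbols searched as germline markers, 0 were included and 1, Ifitm3, had an ORF in the table. The symbols Fragilis and Blimp1 are older names of Ifitm3 and Prdm1, which are also listed, so fewer than 23 genes were searched. Of 13 fibroblast and stroma markers, 9 had an ORF in the table and 2, Col1a1 and Vim, were included. The other 7 were at 0 in shGm26917 replicate 1. Of 17 macrophage markers, 0 were included, though 3 (Adgre1, Lgals3 and Ptprc) had ORFs above 0 in every library but shGm26917 replicate 1.

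ORFs just outside the rule included genes with large values. Hspa9, the mitochondrial Hsp70 chaperone, was at 0 and 8857 in shGm26917, against 7650 and 9247 in shNC. Eif3c, a subunit of the initiation factor eIF3, was at 0 and 7294 in shGm26917, against 5802 and 6379 in shNC. Msn, which links actin to the membrane, was at 0 and 6974 in shGm26917, against 5275 and 5622 in shNC. These 3 had the largest means among ORFs missing from shGm26917 replicate 1 alone. Just inside the rule, the smallest values in that library belonged to Arhgef2, an exchange factor for RhoA, at 2.25 (1 read), to the histone gene Hist1h4i at 4.50 and to the pseudogene Cd63-ps at 6.74. Single ORFs were lost from other libraries too. Lrrc59, an ER membrane protein, had 1400 and 1629 in shGm26917, against 1325 and 0 in shNC, and Emilin1, an elastic fibre glycoprotein, had 252 and 0 in shGm26917, against 187 and 212 in shNC.

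Over the 296 ORFs the shGm26917 replicates differed from each other more than the shNC replicates did. Across the ORFs, Pearson r of log2 values was 0.763 to 0.793 between shGm26917 replicate 1 and each other library, and 0.943 to 0.956 among the other 3 libraries (296 ORFs, which share each library's depth and are not independent). Values differed more than 2-fold between the shGm26917 replicates for 119 ORFs (40.2%), and between the shNC replicates for 24 ORFs (8.11%). Replicate 1 of shGm26917 was the highest library for 105 ORFs and the lowest for 129. The difference of this library varied with the level, as the rule favours, since an ORF that is low elsewhere enters mainly where its value in shGm26917 replicate 1 is high. These values are therefore a description. Among the 60 ORFs with a mean under 100 in the other 3 libraries, shGm26917 replicate 1 lay above their mean log2 value by a median of 1.06. In 31 of these ORFs it was more than 2-fold above that mean. Among the 98 ORFs with a mean of 1000 or more, its median difference was −0.39, with 3 ORFs more than 2-fold above and 18 more than 2-fold below.

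**Figure D1:**
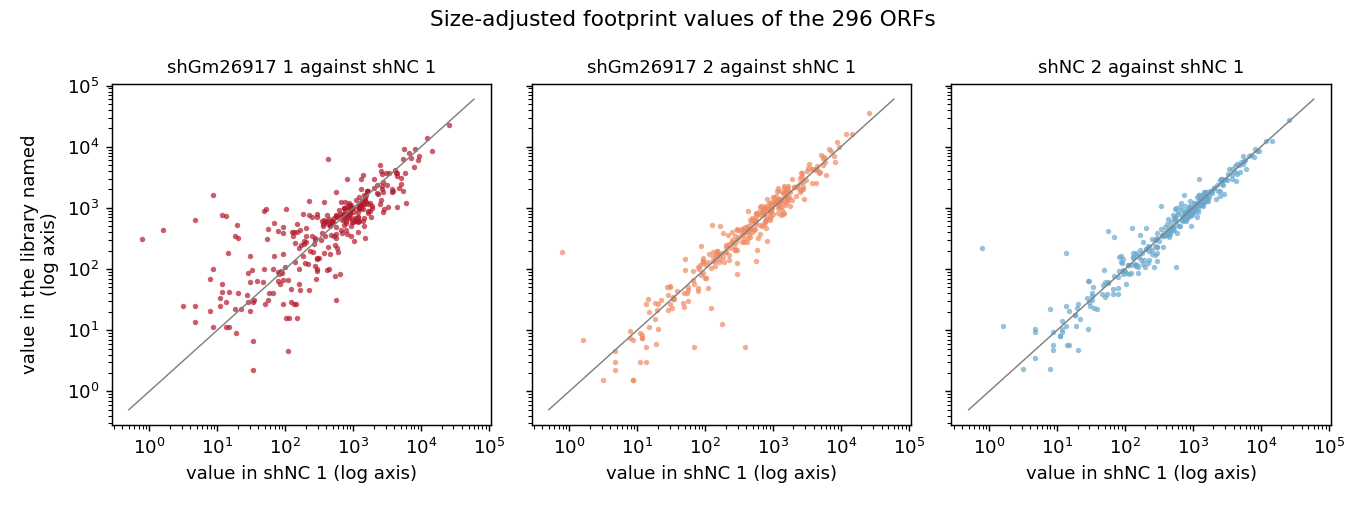
Values of the 296 ORFs in shGm26917 replicate 1 (left), shGm26917 replicate 2 (middle) and shNC replicate 2 (right) on the y axis, each against shNC replicate 1 on the x axis, in size-adjusted footprint units on log axes, with 1 point per ORF and the line of equal values. Points of shGm26917 replicate 1 scatter widely, with 36.8% beyond 2-fold, against 9.80% for shGm26917 replicate 2 and 8.11% for shNC replicate 2.

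Some ORFs were nearly even across the 4 libraries. Pkm, the last enzyme of glycolysis, had 2371 and 2239 in shGm26917, against 2278 and 2407 in shNC. Eif3b, a scaffold subunit of eIF3, had 4091 and 4157 in shGm26917, against 4113 and 3852 in shNC. Sdha, a subunit of succinate dehydrogenase, had 2138 and 2226 in shGm26917, against 2020 and 2125 in shNC. In these 3 ORFs the highest library exceeded the lowest by 1.07, 1.08 and 1.10 times. Among all 296, the highest library was within 1.5 times the lowest for 69 ORFs (23.3%), and over 10 times the lowest for 25. Without shGm26917 replicate 1, 180 ORFs (60.8%) lay within 1.5-fold and 5 lay beyond 10-fold.

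Other ORFs stood far apart in 1 library. Atp5b, the catalytic beta subunit of ATP synthase, had 6415 and 500.3 in shGm26917, against 432 and 393 in shNC. Bhlhe40, a circadian and stress-responsive repressor, had 638 and 3.02 in shGm26917, against 4.74 and 3.50 in shNC. In both, shGm26917 replicate 1 was high and the other 3 libraries were close together. Altogether, 30 ORFs in shGm26917 replicate 1 lay more than 4-fold above the mean log2 value of the other 3 libraries. Another 15 lay more than 4-fold below that mean. In some ORFs another library had a value far from the rest. Fbl, the rRNA methyltransferase fibrillarin, had 312 and 190.4 in shGm26917, against 0.790 and 220.3 in shNC, where the lowest value is 1 read. Psmd2, a scaffold subunit of the proteasome cap, had 589 and 5.29 in shGm26917, against 389 and 480.2 in shNC. Both Fbl and Psmd2 also count among the 30, since a low value in another library lowers the mean.

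The comparison of the groups found no ORF past the threshold. With limma fitted on log2 values over the whole table (0 taken as missing), 0 of the 296 ORFs had an adjusted p under 0.05 with Benjamini-Hochberg adjustment over the 4268 ORFs tested, against 0% of the table, and the smallest adjusted p was 0.688. At an unadjusted p under 0.05, 8 ORFs were higher in shGm26917 (2.70% of the 296, against 2.58% of the table) and 10 were lower (3.38%, against 4.10% of the table). These shares lie near those of the table, but the table's shares come from an unlike comparison. Only 372 ORFs of the table were above 0 in shGm26917 replicate 1. With 0 as missing, most other ORFs were tested with shGm26917 replicate 2 alone against shNC. edgeR's quasi-likelihood test on the recovered reads of the 296 ORFs called 0 as well (14 of them at an unadjusted p under 0.05). DESeq2 also called 0 (3 under that limit). With the replicate number as a block in limma, 1 of the 296 was called, Atp5b, against 0.196% of the ORFs tested. Without shGm26917 replicate 2, which leaves that group with 1 library of few reads, 43 of the 296 were called, against 13.5% of the ORFs tested. The median log2 change, shGm26917 over shNC, was −0.02 over the 296 ORFs and −0.02 over all ORFs tested. How the size factors were formed is not stated. If ORFs above 0 in every library set them, the scaling would fix the median of the 296 near 0. That median is therefore no measure of a common change. Both shGm26917 libraries lay above both shNC libraries for 56 ORFs (18.9%), and both lay below for 52 (17.6%). With 0 counted as a value, the shares over the table were 1.73% above and 27.3% below, which reflects the ORFs at 0 in shGm26917 replicate 1. With 2 libraries against 2, an exact permutation test of a single ORF cannot give a two-sided p under 0.333.

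The ORFs named next had the smallest p-values among those whose groups did not overlap, so their separation follows from the choice. Those with lower values in shGm26917 belonged to genes of different functions. Oxa1l, which inserts proteins into the inner mitochondrial membrane, had 373 and 287 in shGm26917, against 807 and 682 in shNC, a log2 change of −1.18 (SE 0.21). Sptbn1, the beta-II spectrin of the membrane skeleton, had 29.2 and 23.4 in shGm26917, against 122 and 118 in shNC, a log2 change of −2.20 (SE 0.40). Col1a1, which encodes a type I collagen chain, had 677 and 822 in shGm26917, against 1461 and 1262 in shNC, a log2 change of −0.86 (SE 0.17). In each of these the replicates of a group lay close together and apart from the other group. Eif2s1, the alpha subunit of eIF2, whose phosphorylation limits initiation under stress, had 697 and 1057 in shGm26917, against 1803 and 1892 in shNC, a log2 change of −1.11 (SE 0.24). Snrpb, a core protein of spliceosomal particles, had 191 and 318 in shGm26917, against 599 and 846 in shNC, a log2 change of −1.53 (SE 0.34). Aasdhppt, which attaches phosphopantetheine to carrier proteins, had 31.5 and 138 in shGm26917, against 559 and 527 in shNC, a log2 change of −3.04 (SE 0.77). Its 2 shGm26917 values differed from each other by over 4-fold. All 6 had an adjusted p of 0.688 in the limma fit.

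Among ORFs with higher values in shGm26917, Gnai2, an inhibitory G protein alpha subunit, had 1009 and 1002 in shGm26917, against 761 and 758 in shNC, a log2 change of 0.41 (SE 0.12). Ifitm1, an interferon-induced membrane protein, had 1326 and 1543 in shGm26917, against 1092 and 955 in shNC, a log2 change of 0.49 (SE 0.16). Coro1a, an actin-binding coronin abundant in blood cells, had 688 and 623 in shGm26917, against 515 and 442 in shNC, a log2 change of 0.46 (SE 0.16). These changes were small, and the lack of overlap between groups was required by the choice of ORFs. Mcm3, a subunit of the replicative helicase, had 971 and 148 in shGm26917, against 51.3 and 35.0 in shNC, a log2 change of 3.16 (SE 1.00). Psmd5, a chaperone of proteasome assembly, had 780 and 395 in shGm26917, against 182 and 273 in shNC, a log2 change of 1.32 (SE 0.43). Ccdc102a, a coiled-coil protein, had 620 and 458 in shGm26917, against 345 and 355 in shNC, a log2 change of 0.61 (SE 0.21). The large change of Mcm3 came mainly from shGm26917 replicate 1. The adjusted p was 0.718 for each of these 6 ORFs in the limma fit.

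**Figure D2:**
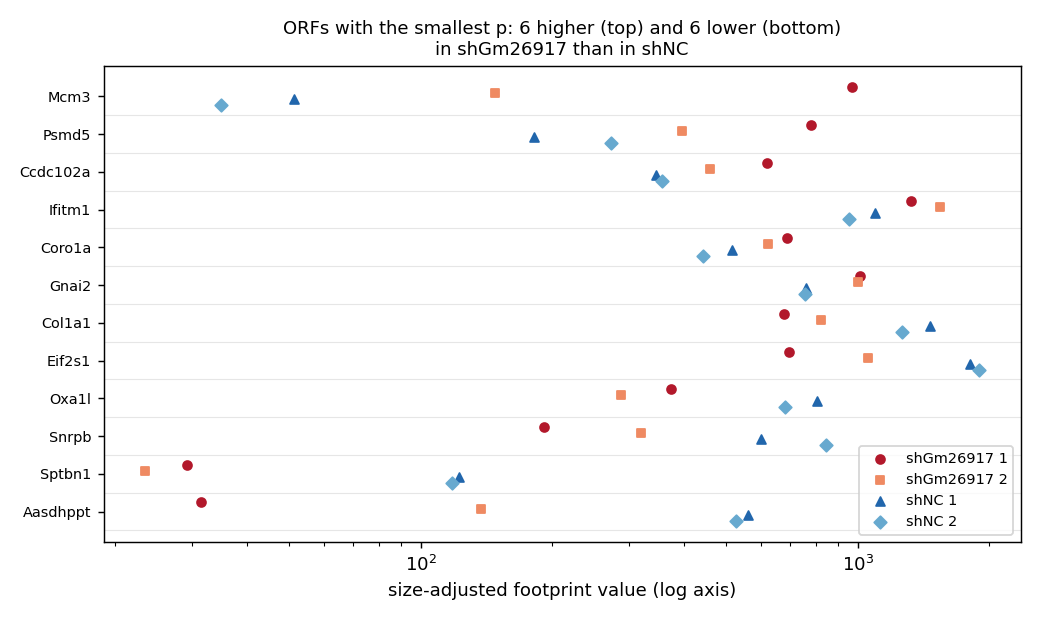
Size-adjusted footprint values (x axis, log scale) of 12 ORFs, 6 with higher values in shGm26917 in the upper rows and 6 with lower values in the lower rows, with 1 marker per library. The ORFs were chosen among those whose groups do not overlap, so no row shows overlap. The shGm26917 replicates lie far apart for Mcm3 and Aasdhppt.

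The ORFs could be placed in gene lists for 137 of the 296, and 159 were in none. The lists were matched by symbol, and no member of any list passed the test. Histone genes were the list with most members, with 21 of the 48 histone ORFs of the table. Of the 21, 17 lie on chromosome 13 in the mm10 annotation. The median log2 change of the 21 was −0.56, beside −0.02 over all ORFs tested, with 16 below 0 and 5 above. Groups did not overlap for 8 lower members and 1 higher member, where the shares over the 296 were 17.6% lower and 18.9% higher. No histone ORF had an unadjusted p under 0.05. The median stayed below 0 under TMM (−0.56), quantile scaling (−0.75), DESeq2 (−0.48) and edgeR (−0.46 over the table, −0.48 over these ORFs), and was −0.33 without shGm26917 replicate 1, with 16 of 21 still below 0, and −1.13 without shGm26917 replicate 2. Near-identical histone copies share footprints, so the split of reads among them depends on the counting.

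The histones with the largest values did not share a direction. Hist1h4d, an H4 gene, had 9355 and 6746 in shGm26917, against 5587 and 5897 in shNC, the 1 histone ORF with both shGm26917 libraries above both shNC libraries. Hist1h3c, an H3 gene, had 1207 and 3489 in shGm26917, against 6079 and 4341 in shNC. Hist1h1c, a linker histone, had 1358 and 1834 in shGm26917, against 2529 and 1557 in shNC. Hist1h3c was thus lower in both shGm26917 libraries and Hist1h1c overlapped. By family, the 6 H2B ORFs were all below 0 with a median log2 change of −0.88. Groups did not overlap for 4 of them (17.6% lower over the 296). Of the 9 H3 ORFs, 6 were below 0 with a median of −0.56. Of the 3 H4 ORFs, 2 were below 0. The smallest value in shGm26917 was that of Hist1h4i, an H4 gene, with 4.50 and 49.1 in shGm26917, against 111 and 115 in shNC. In 14 of the 21 ORFs, shGm26917 replicate 1 was the lowest library.

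**Figure D3:**
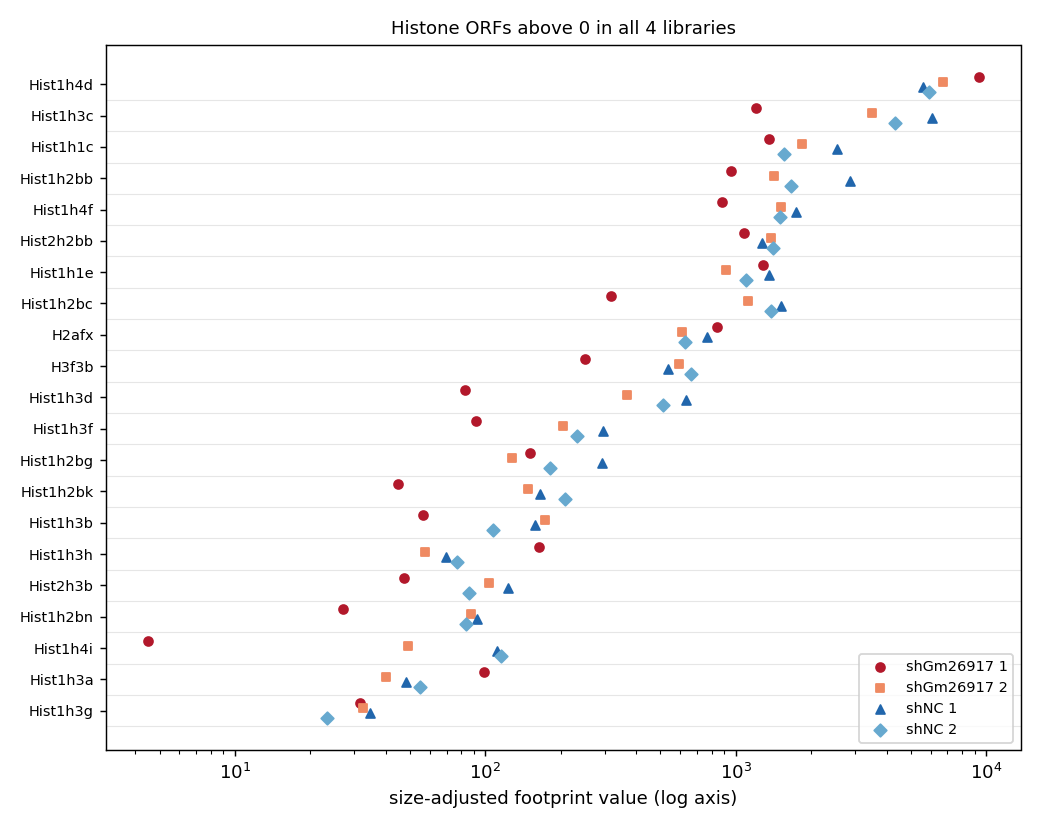
Size-adjusted footprint values (x axis, log scale) of the 21 histone ORFs, ordered by mean value from the top, with 1 marker per library. Replicate 1 of shGm26917 is the lowest library in 14 rows, and Hist1h4d in the top row has both shGm26917 libraries above both shNC libraries.

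Chaperones and co-chaperones had 14 of 58 ORFs among the 296, with a median log2 change of −0.01, 3 members higher and 2 lower without overlap (18.9% and 17.6% over the 296). Hsp90ab1, the constitutive cytosolic Hsp90, had 14063 and 16054 in shGm26917, against 12026 and 12428 in shNC. Dnajb11 and P4hb were the other 2 higher members, and Serpinh1, the collagen chaperone, and Bag6, which handles tail-anchored proteins, the 2 lower. The list's median was 0.26 without shGm26917 replicate 1 and −0.33 without shGm26917 replicate 2. The 2 shGm26917 libraries thus lay on opposite sides of shNC.

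The translation machinery was represented by 9 large and 7 small ribosomal subunit proteins, 9 initiation factors and Eef2. Eef2, the translocase of elongation, had 7988 and 9065 in shGm26917, against 6583 and 7125 in shNC, without overlap. Among initiation factors (9 of 39 ORFs, median log2 change 0.08, and 0.31 without shNC replicate 1), Eif3a, the largest eIF3 subunit, had 6305 and 6626 in shGm26917, against 5458 and 7062 in shNC. Eif3g and Eif3h, further eIF3 subunits, were higher without overlap, and Eif2s1 was lower. Large subunit proteins (9 of 25 ORFs, median −0.04) had 0 higher and 2 lower members without overlap, Rpl36al and Rpl41, against 18.9% and 17.6% of the 296. The median of this list was −0.71 without shGm26917 replicate 2, 0.11 without shNC replicate 1 and 0.07 with DESeq2, so it had no stable sign. Rpl4 had 2391 and 4027 in shGm26917, against 3185 and 2899 in shNC, Rpl8 had 895 and 2265 in shGm26917, against 1636 and 1311 in shNC, and Rplp1, a stalk protein, had 223 and 806 in shGm26917, against 579 and 393 in shNC. In these 3, shGm26917 replicate 1 was the lowest library and replicate 2 the highest. Small subunit proteins (7 of 17 ORFs, median −0.13) had 0 members without overlap. Rps3a1 had 121 and 354 in shGm26917, against 218 and 239 in shNC. The median of the small subunit list was −0.43 without shGm26917 replicate 1, 1.38 without replicate 2 and 0.57 with DESeq2, so its sign depended on the library and the scaling. Ribosomal protein genes have many processed pseudogene copies, so their counts are uncertain.

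Extracellular matrix genes (9 of 47 ORFs) had a median log2 change of −0.27, with 4 members lower and 1 higher without overlap (17.6% and 18.9% over the 296). The 4 lower members were Col1a1, Serpinh1, Igfbp6, which binds insulin-like growth factor, and the proteoglycan Bgn. Bgn had 227 and 280 in shGm26917, against 420.1 and 388 in shNC. The higher member was Lama5, a laminin chain of basement membranes, with 1639 and 1821 in shGm26917, against 1467 and 1246 in shNC. Nid1, which joins laminin to collagen IV, had 2974 and 635 in shGm26917, against 801 and 811 in shNC. The matrix list kept a negative median without shGm26917 replicate 1 (−0.32) and without replicate 2 (−0.39). Contractile and cytoskeletal genes (7 of 30 ORFs) had a median of −0.19, which was −0.08 without shGm26917 replicate 1. Myh9, nonmuscle myosin heavy chain, had 7143 and 9853 in shGm26917, against 9254 and 8471 in shNC. Tln1, which couples integrins to actin, had 3679 and 4298 in shGm26917, against 4228 and 4866 in shNC. Both overlapped between groups.

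Tubulin and mitosis genes (5 of 43 ORFs) had a median log2 change of 0.53, with 2 members higher and 0 lower without overlap (18.9% and 17.6% over the 296). Tubb4b, a beta tubulin, had 544 and 198 in shGm26917, against 152 and 170.2 in shNC, and Tuba1a, an alpha tubulin, had 173 and 135 in shGm26917, against 94.0 and 96.7 in shNC. Tpx2, a spindle assembly factor, had 618 and 1478 in shGm26917, against 1048 and 1210 in shNC, and overlapped, as did the alpha tubulin Tuba1c with 87.7 and 238 in shGm26917, against 88.5 and 128 in shNC. Proteasome genes (7 of 33 ORFs) had members far apart in both directions, 3 higher and 1 lower without overlap (18.9% and 17.6% over the 296), and a median of −0.68 that turned to 0.37 without shGm26917 replicate 1 and to 0.45 without replicate 2. Psmb4, a beta subunit of the core particle, had 1038 and 4441 in shGm26917, against 3255 and 3614 in shNC. The median of this list therefore describes no common direction. Oxidative phosphorylation subunits (7 of 54 ORFs, median 0.17, but −0.01 without shGm26917 replicate 2, −0.02 without shNC replicate 1 and −0.05 without shNC replicate 2) included Atp5b above and Atp5j2, a subunit of the membrane part of ATP synthase, which had 1052 and 2539 in shGm26917, against 4353 and 2780 in shNC. Ndufa13, a complex I subunit, overlapped, with 620 and 1150 in shGm26917, against 1181 and 866 in shNC. Glycolysis and citric acid cycle enzymes (7 of 31 ORFs, median −0.02, and 0.11 without shNC replicate 2) included Pkm and Sdha above. Mdh1, the cytosolic malate dehydrogenase, had 1018 and 1383 in shGm26917, against 1223 and 1625 in shNC.

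Genes of the amino acid stress response, many of which ATF4 induces, had 5 of 23 ORFs among the 296 and a median log2 change of 0.25, all 5 above 0. Trib3, a pseudokinase of that response, had 1854 and 1945 in shGm26917, against 1643 and 1612 in shNC. Slc7a1, an importer of cationic amino acids, had 1645 and 1935 in shGm26917, against 1572 and 1430.0 in shNC. Both were higher without overlap, and 0 members were lower (18.9% and 17.6% over the 296). Hspa5 also belongs to this list. Without shGm26917 replicate 1, 4 of the 5 were above 0, and likewise 4 without shGm26917 replicate 2. Nutrient and ion transporters (5 of 65 ORFs, median 0.38, and 0.12 without shGm26917 replicate 1) included Slc39a6, a zinc transporter, with 1893 and 4365 in shGm26917, against 3808 and 4254 in shNC. Of the secretory pathway list (5 of 44 ORFs), Rpn1, an oligosaccharyltransferase subunit, had 2012 and 4265 in shGm26917, against 3758 and 3002 in shNC. Copg1, a COPI coat subunit, had 825 and 876 in shGm26917, against 911 and 1284 in shNC, and was lower without overlap. Copz1, another COPI subunit, had 342 and 28.0 in shGm26917, against 18.2 and 17.5 in shNC. The median of this list was 1.72, but 0.34 without shGm26917 replicate 1, 0.84 without shNC replicate 2 and −0.20 with ORFs of a mean value of at least 100. Lysosomal genes (3 of 36 ORFs) included Ctsl, a cysteine protease, with 9227 and 5691 in shGm26917, against 8203 and 9324 in shNC. Cholesterol synthesis genes (0 of 12 ORFs) and S100 proteins and annexins (0 of 8) had no member.

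**Figure D4:**
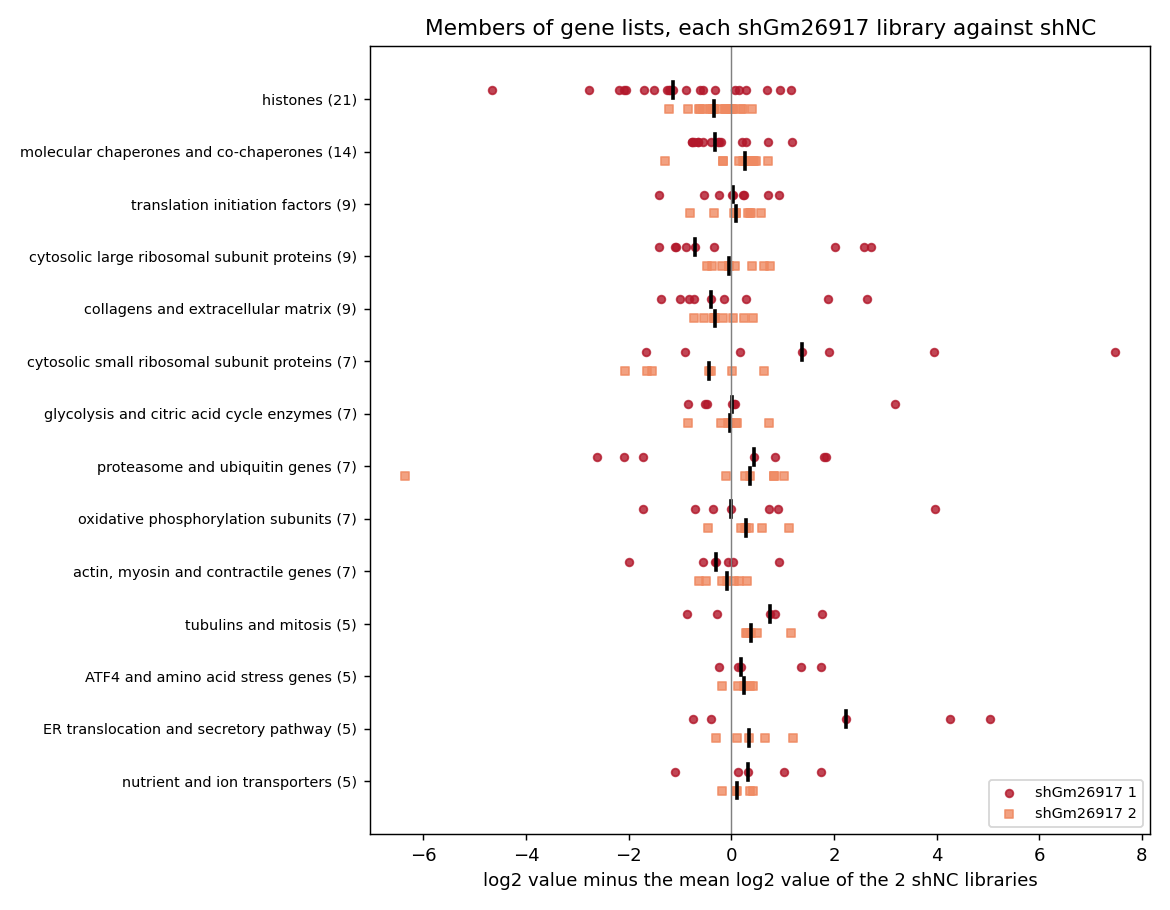
Difference of each shGm26917 library from the mean of the 2 shNC libraries on the log2 scale (x axis) for members of the 14 gene lists with at least 5 members (rows, number of members in parentheses), with 1 marker per ORF and a black tick at each library's median. Histone medians lie below 0 in both libraries, at −1.13 for shGm26917 replicate 1 and −0.33 for replicate 2, while the small ribosomal subunit medians lie at 1.38 and −0.43.

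The 14 ORFs outside annotated coding sequences lay mostly in processed pseudogenes, which are copies of mRNAs inserted into the genome and whose footprints can come from the parent gene. Gm13461 had the largest mean, with 400.1 and 2093 in shGm26917, against 1166 and 719 in shNC. Rpl14-ps1, a copy of a ribosomal protein mRNA, had 492 and 134 in shGm26917, against 92.4 and 146 in shNC. Gm9385 had 45.0 and 254 in shGm26917, against 221 and 127 in shNC. None of these separated the groups. Gm9625 had 27.0 and 179 in shGm26917, against 145 and 112 in shNC, and Gm5823 had 15.7 and 117 in shGm26917, against 103 and 87.4 in shNC, with shGm26917 replicate 1 lowest in both. Impdh2-ps had 40.5 and 65.0 in shGm26917, against 65.5 and 38.5 in shNC, and Gm12183 had 60.7 and 50.6 in shGm26917, against 30.0 and 64.1 in shNC. Others of this kind were in Vcp-rs, Cd63-ps, Gm5422, Rps16-ps2, Gm7666 and the coding gene Aldoa, with values of 1.51 to 53.7. Groups did not overlap for 1 of the 14, Rps16-ps2, with 11.2 and 3.02 in shGm26917, against 13.4 and 11.7 in shNC. Each of its 4 values rests on few reads. Over the 296, the shares without overlap were 17.6% lower and 18.9% higher.

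TE was available for the genes of 293 of the 296 ORFs, and above 0 in each library for 290. It covers the whole gene and shares its footprints with the ORF values. The median TE of the 290 genes was 1.80 and 1.87 in shGm26917, against 1.71 and 1.80 in shNC, and that of all 10115 genes tested lay between 0.990 and 1.00. A selection on footprints favours genes with a high TE, so this difference from the other genes is a description. With limma, 0 of 290 genes had an adjusted p under 0.05, against 0% of the 10115, and the smallest adjusted p was 0.965. Without shGm26917 replicate 2, 6 were called, against 5.76% of the genes tested. At an unadjusted p under 0.05, 5 genes were higher in shGm26917 (1.72%, against 1.30% of the genes tested) and 0 were lower (0.86% of the genes tested). Both shGm26917 libraries lay above both shNC libraries for 71 of the 290 genes (24.5%, against 16.1% of the genes tested) and below for 32 (11.0%, against 14.8%). The median log2 change of TE was 0.09 over the 290 genes and 0.00095 over all genes tested. With quantile normalization of TE these medians were −0.0081 and −0.010, so the difference between them depended on the scaling.

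Of the 5 genes, 3 encode histone H3. Hist1h3h had a TE of 1279 and 319 in shGm26917, against 57.8 and 109 in shNC. Hist1h3a had a TE of 1541 and 444 in shGm26917, against 120.2 and 116 in shNC, and Hist1h3g of 81.7 and 60.1 in shGm26917, against 28.9 and 24.7 in shNC. The others were Ybx3, an mRNA-binding cold shock protein, with a TE of 2.03 and 1.50 in shGm26917, against 0.911 and 0.721 in shNC, and Sap18b, with 1.45 and 0.719 in shGm26917, against 0.506 and 0.312 in shNC. Median histone TE lay far above that of other genes, at 219 and 478 in shGm26917, against 120.2 and 135 in shNC. Single histone genes differed widely. Hist1h4d had a TE of 36450 and 18700 in shGm26917, against 4646 and 1564 in shNC. H3f3b had 0.306 and 0.509 in shGm26917, against 0.447 and 0.470 in shNC. TE divides by RNA, so a small RNA value can give a very large ratio, and whether this applies here was not tested. Over the 19 histone genes with TE, the median log2 change of TE was 0.58, with 14 above 0, and the median log2 change of the ORF value over the same 19 was −0.63. Gene by gene, 5 were above 0 in both readouts, 5 were below 0 in both, and 9 were below 0 in the ORF value and above 0 in TE.

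The gene-level readout did not follow most of the upward differences of shGm26917 replicate 1 in the ORF values. Atp5b, whose ORF value was over 10 times higher in shGm26917 replicate 1 than in any other library, had a TE of 1.80 and 2.75 in shGm26917, against 2.31 and 2.44 in shNC. Bhlhe40 had a TE of 1.02 and 1.42 in shGm26917, against 1.23 and 1.45 in shNC. For the 30 ORFs more than 4-fold above the mean of the other libraries in shGm26917 replicate 1, the median log2 difference was 3.49 in the ORF value. It was −0.20 in TE, and TE lay more than 2-fold above that mean for 6. These 30 include ORFs such as Fbl and Psmd2, where another library was low. For the 15 ORFs more than 4-fold below, of which 14 had TE, the medians were −2.59 and −1.07, and TE lay more than 2-fold below for 7. Across the 290 genes, differences between the shGm26917 replicates correlated between the ORF value and TE at Pearson r of 0.322, and those between the shNC replicates at 0.272. These correlations are across genes that share libraries and footprints. In the same genes, the shGm26917 replicates differed more than 2-fold in the ORF value for 116 and in TE for 58, and the shNC replicates for 24 and 9.

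**Figure D5:**
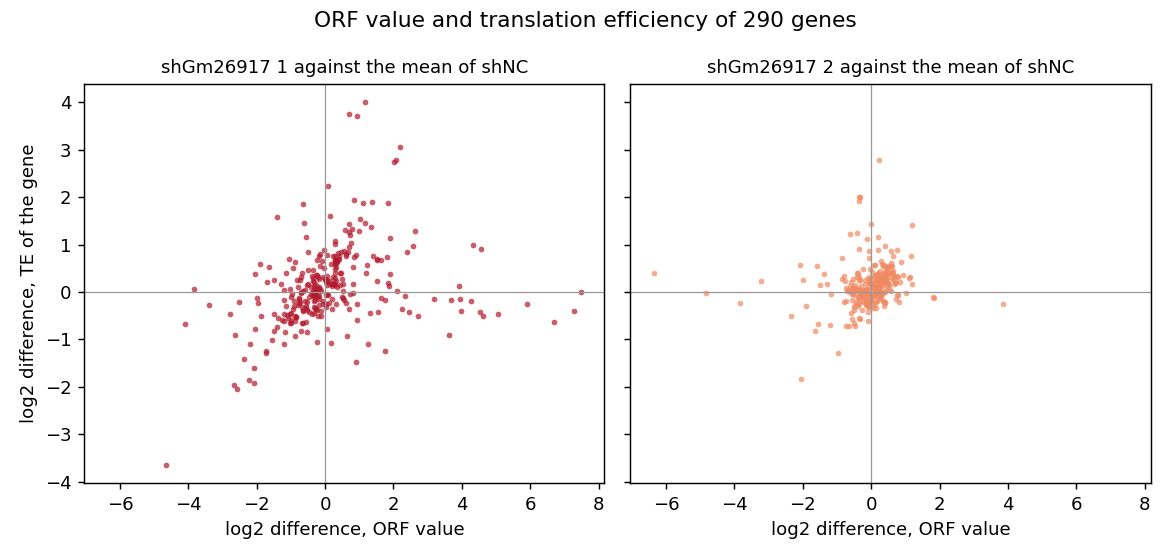
Log2 difference of the ORF value (x axis) and of the TE of the same gene (y axis) from the mean of the 2 shNC libraries, for shGm26917 replicate 1 (left) and shGm26917 replicate 2 (right), with 1 point per gene for 290 genes. In the left panel a row of points extends to the right near a TE difference of 0, among them Bhlhe40 and Atp5b.

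Groups did not overlap on the same side in both readouts for 36 genes, 25 higher and 11 lower in shGm26917 (8.62% and 3.79% of the 290). Over the 4432 ORFs of the table whose gene had TE tested, with 0 of the ORF value counted as a value, the shares were 0.677% higher and 5.89% lower. These shares come from an unlike comparison. An ORF at 0 in shGm26917 replicate 1 cannot count as higher, and only 372 ORFs of the table were above 0 there. The lower ones included Col1a1, Sptbn1, Lrp1, an endocytic receptor, and Ahnak, a giant scaffold protein. Their log2 changes of TE were −0.58 (SE 0.30) for Col1a1, −0.64 (SE 0.32) for Sptbn1, −0.69 (SE 0.32) for Lrp1 and −0.66 (SE 0.31) for Ahnak. The higher ones included Eef2, the eIF3 genes Eif3g and Eif3h, Ifitm1 and Cdc37, an Hsp90 cochaperone for kinases. Their log2 changes of TE were between 0.36 for Eef2 and 0.68 for Eif3g and Ifitm1. As the readouts share footprints, these 36 are not 2 independent observations each, and none passed either test.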

How the data were processed

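Per the labels, footprints were isolated after RNase I digestion and a sucrose cushion, and the submitters' processing notes name build mm10. The authors called ORFs with RiboCode. The deposited ORF signal values are the authors' read numbers divided by a size factor per library. Dividing them by the smallest step gave whole reads for 100% of values above 0 (tolerance 0.01 reads). For shGm26917 replicate 1, which has few low values, this rests on the whole multiples alone, as do its reads in edgeR and DESeq2. A read was worth 2.25 and 0.756 in shGm26917 and 0.790 and 1.17 in shNC. The deposited TE is a ratio of footprints to RNA per gene made by the authors. The sources used here do not name the aligner or say how size factors were formed. The authors' own fold changes and p-values were not used.

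Log2 values with 0 as missing were compared with limma 3.58.1 (lmFit, eBayes with trend, R 4.3.3) over the whole table, and TE over genes above 0 in each library. edgeR 4.0.16 and DESeq2 1.42.0 were run on recovered reads as alternatives. The procedure was tested on simulated data. Replicates are separate samples by label, not stated to be separate cultures, so p-values measure the spread between these samples. The ORFs and gene lists were chosen with earlier results of these data known. Genes were named by rule. The rule took the 6 smallest p-values in each direction among ORFs whose groups did not overlap. It also took the 8 largest means, the 3 largest of each list, ORFs outside annotated sequences and those just inside and outside the selection. Genes standing far apart in 1 library, even across libraries or separated in both readouts were picked after their values were seen. A few genes that the rule takes are not reported here.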

Additional observations from a re-analysis of the deposited data

How the results depend on the processing

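No ORF of the 296 was called under zeros kept, a fit of these ORFs alone, a pseudocount of 10, TMM, quantile scaling, a mean of at least 100, edgeR on either set, DESeq2 or no trend. Leaving out each library gave 0 to 43 calls. The 43 (17 higher, 26 lower, 49 of 362 ORFs tested or 13.5%) arose without shGm26917 replicate 2, where the group is shGm26917 replicate 1 alone, assumed to vary like the shNC libraries. They included Atp5b, Mcm3, Eif2s1, Snrpb and Aasdhppt. For TE the range was 0 to 6 (2 higher, 4 lower), with the 6 again without shGm26917 replicate 2. Other TE settings called 0. With the replicate number as a block, 1 ORF was called, Atp5b, higher (6 of 3056 ORFs tested, 0.196%), and 0 genes by TE. The labels state no pairing of same-numbered libraries. Their deviations correlated at −0.14 over the 296 ORFs and −0.043 over TE, and whether they share a culture or batch was not tested. The crossed pairing, chosen after seeing the data, called 0. The median log2 change of the ORFs lay between −0.07 and 0.06 without single libraries, and the scaling may itself hold it near 0. Of the 12 ORFs named by p, whose groups do not overlap and whose sign is fixed by that choice, 4 passed the threshold without shGm26917 replicate 2. Under 100 reads lay on 86 and 58 of the 296 ORFs in shGm26917, against 55 and 71 in shNC, and under 10 reads on 13 and 14, against 6 and 16.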
